A study of Caenorhabditis elegans with 93 samples.

Results

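Neuropeptide and insulin-like genes were taken from the RNA-seq table of C. elegans embryos by their symbols: every row named flp, nlp or ins with a number, and daf-28. This gave 146 genes of 27790 rows, of which 31 were flp genes, 75 were nlp genes and 40 were ins genes including daf-28. Of these genes, 16 had a row among the 8479 genes with antisense 22G-RNAs, and 79 had at least 1 of the 31618 regulatory elements measured by ATAC-seq nearest to a transcript start of theirs, 121 elements in all. Embryos were obtained by bleaching untreated worms of the laboratory strain N2, grown at 20 °C. The 3 lineages, A, B and C, were passed through bottlenecks of 2 hermaphrodites per generation and sampled at alternate generations between 2 and 20, with generation 0, grown before any bottleneck, as the reference of each lineage. RNA-seq gave 31 libraries, 28 of generations 2 to 20 and 3 of generation 0, with 1 library for each lineage and generation. Lineage B was not analysed at generation 4 in any assay, and lineage C was not analysed at generation 14 for RNA and at generation 8 for chromatin. Each library holds RNA or chromatin of many whole embryos, so that a lower level in fewer cells and a lower level per cell cannot be told apart.

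Neuropeptides are cut from larger precursors inside dense-core vesicles and are released from neurons, and from some epidermal and intestinal cells, to act on G protein-coupled receptors. In C. elegans the flp genes encode FMRFamide-like peptides, the ins genes with daf-28 encode insulin-like peptides, and the nlp genes hold the remaining neuropeptide-like precursors, among them epidermal antimicrobial peptides. Insulin-like peptides either activate or oppose the receptor DAF-2, which controls the choice between reproductive growth and the dauer stage. In the embryo most neurons are born in the middle of development and take on their peptides later, so the level of these transcripts in a pool of embryos depends on the ages of the embryos in it.

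RNA-seq libraries held 42039288 to 49318096 reads counted over genes, and values are read counts divided by a size factor for each library, called normalized counts below. In all 31 libraries the values were whole multiples of 1 read, which was worth 0.864 to 1.10 normalized counts. Of the 15 neuron markers, the 12 maternal and early embryo markers and the 7 muscle markers, none was at 0 in every library. In the 12 adult markers, of yolk and sperm proteins, only 6 reached a mean of 10 normalized counts, and their summed level was 1930 to 3059.7 in generations 2 to 20 and 2691 to 3639 in generation 0. The libraries of generation 0 differed from later ones in embryo markers. The summed level of the 12 maternal and early embryo markers was 36226 to 76908 normalized counts in generations 2 to 20, against 62241 to 108789 in generation 0, and 11 of the 12 were lower in generations 2 to 20. The summed level of the 15 neuron markers was 34224 to 41673 in generations 2 to 20 and 30382 to 32742 in generation 0, with no overlap.

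At the level of single genes, peptide transcripts spanned a wide range. The median over the 146 genes of the mean normalized count was 127, with a lowest mean of 0.347 for ins-16 and a highest of 26529 for nlp-77. A mean of at least 10 was reached by 30 of 31 flp genes, 70 of 75 nlp genes and 20 of 40 ins genes, 120 genes in all. The other 26 genes were not tested, and 24 of the 146 were at 0 in at least 1 library. A count of 0 allows up to 3 reads in a library, so that a gene at 0 was not detectable at this depth rather than absent. Per kilobase of exons the median level was 354 normalized counts in flp genes, 275 in nlp genes and 21.8 in ins genes.

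Among nlp genes, nlp-77, which bears the name srlf-1 in the annotation used here, had the highest level per kilobase of exons. It averaged 26529 ± 4035 normalized counts (SD, n = 31 libraries), or 42378 per kilobase, and made up 40.6% of the summed mean of all 146 genes, so summed levels below leave it out. It was followed by nlp-24 with 5060 per kilobase, nlp-31 with 4856, nlp-29 with 3394 and nlp-49 with 3186. Both nlp-29 and nlp-31 encode antimicrobial peptides of the epidermis, while nlp-49 acts in the control of locomotion and nlp-24 encodes an opioid-like peptide that acts in feeding. The level of nlp-24 varied the most of these 5, between 880 and 3838 normalized counts. The row of nlp-29 (chromosome V, 3982357 to 3984847 in WBcel235) cannot be read as 1 gene alone, since it overlaps 338 bases of nlp-30 exons.

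The flp gene with the highest value was flp-34, but its row runs over 16 kb of chromosome V (1027894 to 1043972). That row shares 505 bases with exons of the neighbouring gene nra-4. Next were flp-27 with 1156 normalized counts per kilobase of exons, flp-1 with 1109, flp-11 with 1059 and flp-9 with 1057, levels that lie closer together than the spread of any of them between libraries. Peptides of flp-1 control locomotion, and those of flp-11 are released by the sleep neuron RIS. Over the 31 libraries flp-1 averaged 762 ± 159 normalized counts, flp-11 785 ± 145 and flp-9 669 ± 165 (SD).

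Insulin-like genes were led by ins-34, with 2340 normalized counts per kilobase of exons, ins-2 with 1591 and ins-1 with 800, followed by ins-10 with 330 and ins-13 with 321. The product of ins-1 opposes DAF-2 signalling. Of the best known activators, ins-6 averaged 135 ± 49.5 normalized counts and daf-28 only 22.7 ± 11.2, with a range of 5.20 to 52.5 (SD, n = 31). Rows of 10 of the 146 genes share at least 50 bp with exons of another protein-coding gene, among them ins-34, ins-10 and ins-13, and reads there cannot be assigned to either gene by strand.

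Over the 120 genes with a mean of at least 10, the coefficient of variation across the 31 libraries was 12.5% to 86.0% with a median of 26.4%, beside a median of 21.9% over all genes that passed the same filter. The class medians were 25.3% for flp, 26.0% for nlp and 34.7% for ins genes. The most variable gene was nlp-27 (86.0%), another member of the epidermal antimicrobial group, which ranged between 2.09 and 56.9 normalized counts. On the X chromosome lay 33 of the 146 genes, or 22.6%, beside 13.9% of the 19074 protein-coding rows.

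The study took generation 0 as the state before the bottlenecks, and the comparison asks which peptide genes differed between it and later generations. Generation 0 is 1 time point with 1 library for each lineage. The bottlenecks, the time of embryo collection and the ages of the embryos therefore cannot be told apart in it. In generations 2 to 20, 42 of the 120 tested genes rose and 2 fell relative to generation 0 (limma, adjusted p under 0.05), a share of 35.0% higher beside 17.7% of all 16714 genes tested and 1.67% lower beside 21.9%. The median log2 difference was 0.42 over the 120 genes and 0.02 over all genes tested. By class, 17 of 30 flp genes rose and none fell, 23 of 70 nlp genes rose and 1 fell, and 2 of 20 ins genes rose and 1 fell. The class medians were 0.55, 0.37 and 0.11 on the log2 scale. Because 39.6% of all genes passed the test in this comparison, a call by itself says little about a peptide gene. In the same libraries 11 of 12 maternal and early embryo markers were lower. Markers of several tissues were higher: 5 of 7 muscle markers (median log2 difference 0.76), 7 of 15 neuron markers with 1 lower (0.46), and 3 of 7 intestine markers with 1 lower (0.26). Of the 12 hypodermis markers 1 was higher and 1 lower, as of the 6 tested adult markers, and the part of these markers in the peptide gene differences was not tested.

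**Figure D1:**
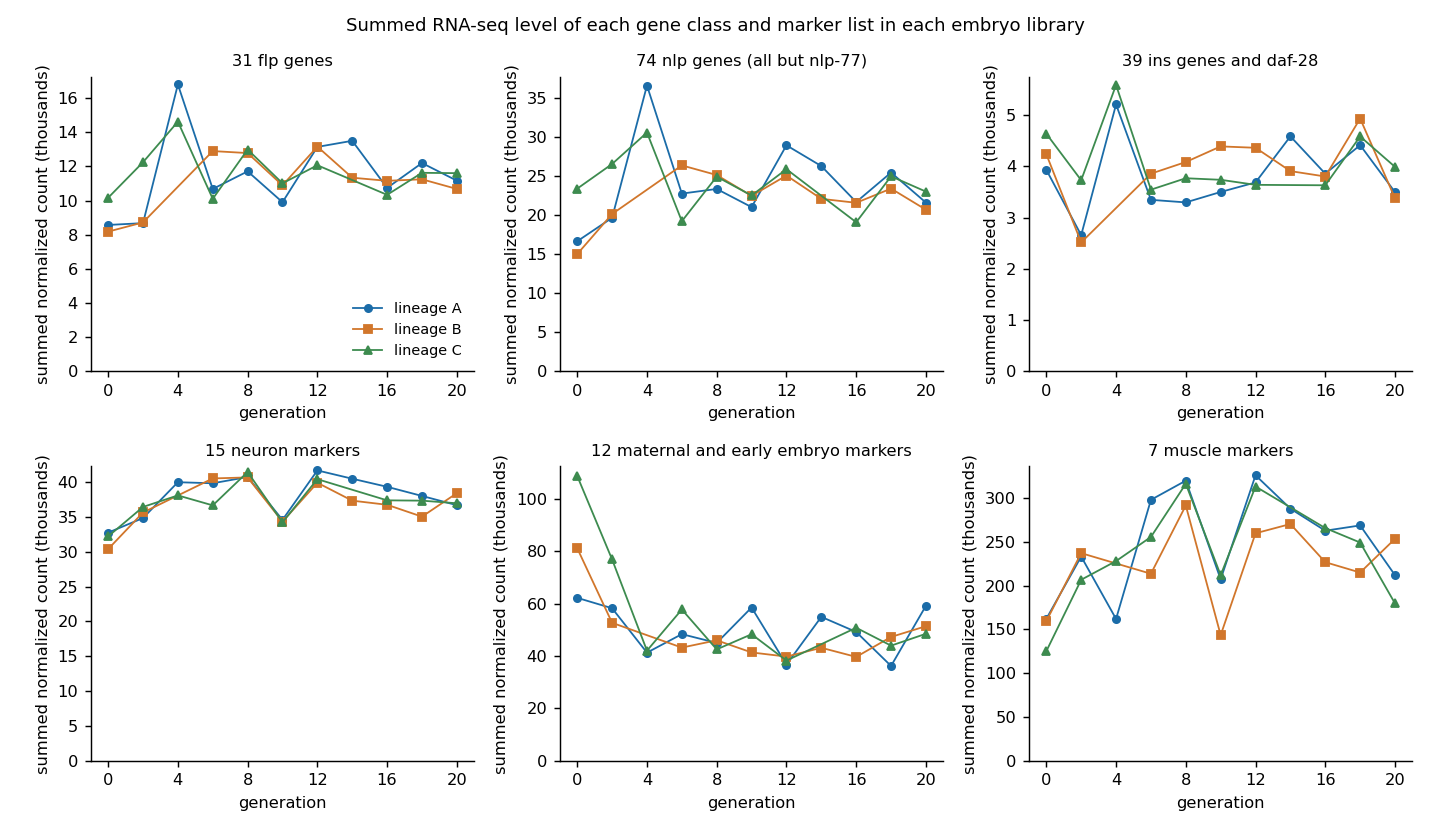
Summed normalized counts (in units of 1000, y axis) of the 31 flp genes, 74 nlp genes, 40 insulin-like genes and 3 marker lists in each library, by generation (x axis) and lineage. The flp sums of generation 0 (8179 to 10161) lie at the low end, generation 4 holds the highest flp, nlp and ins sums, and the maternal markers are highest in generation 0 of lineages B and C.

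Summed flp levels were 8676 to 16787 normalized counts in generations 2 to 20, with a median of 11467, and 8179, 8569 and 10161 in generation 0. The 2 libraries of generation 4 stood above the rest, with 16787 in lineage A and 14614 in lineage C, whereas generations 6 to 20 lay between 9900 and 13493. The nlp sums without nlp-77 followed the same order, with 36610 and 30594 in generation 4 and 19107 to 28960 in generations 6 to 20. The insulin-like sums were 5210 and 5590 in generation 4, against 3299 to 4936 in generations 6 to 20. Without generation 4, 41 genes rose and 3 fell relative to generation 0, so the count did not rest on these libraries. The share of all genes called in that fit is not given here.

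Of the sleep and locomotion peptides, flp-11 had the lowest adjusted p. Its normalized counts were 589 to 1053 in generations 2 to 20, with a median of 828, and 546, 388 and 547 in generation 0 of lineages A, B and C. No library of generations 2 to 20 was as low as the highest of generation 0. The log2 difference was 0.73 ± 0.13 (SE, adjusted p = 4.3e-05). The flp-13 gene, whose peptides from the neuron ALA promote stress-induced sleep, showed the same separation, with 222 to 437 in generations 2 to 20 and 172, 198 and 172 in generation 0, a log2 difference of 0.79 ± 0.15 (adjusted p = 9.0e-05). Groups did not overlap for 7 of the 120 genes, all higher in generations 2 to 20, beside 3.21% of all genes tested.

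The largest rises among flp genes were small in absolute terms. The locomotory arousal peptide gene flp-2 was at 72.9 to 181 in generations 2 to 20 and at 68.3, 63.8 and 72.2 in generation 0 (log2 difference 0.89 ± 0.20, adjusted p = 0.000815). For flp-4 the values were 55.5 to 160 and 53.6, 56.1 and 47 (0.90 ± 0.23, adjusted p = 0.0030), and its groups overlapped only through generation 2 of lineage B. For flp-12 they were 181 to 477 and 127, 144 and 182 (0.85 ± 0.20, adjusted p = 0.00096), with 1 library of generation 2 just under the generation 0 library of lineage C.

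Among nlp genes, nlp-49 combined a high level with a rise, at 1444 to 2969 normalized counts in generations 2 to 20 and 1186, 1039 and 1341 in generation 0 (log2 difference 0.73 ± 0.14, adjusted p = 0.00012). The groups did not overlap. A larger difference was fitted for nlp-34, of the epidermal antimicrobial group, at 1.02 ± 0.26 (adjusted p = 0.0020). It was not called without lineage B (adjusted p = 0.090). The gene was highest in generation 2, as described below. With generations 4 to 20 alone against generation 0 the difference was 0.92 and was still called (limma, adjusted p = 0.00020). For nlp-80 the difference was 0.87 ± 0.19 (adjusted p = 0.00062), with 164 to 366 in generations 2 to 20 and 125, 94.8 and 176 in generation 0.

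Of the 2 insulin-like genes that rose, ins-30 had the larger difference: it was at 70.6 to 169 normalized counts in generations 2 to 20, against 34.2, 62.9 and 48.1 in generation 0, with no overlap (log2 difference 1.0 ± 0.20, adjusted p = 0.00017). The DAF-2 antagonist gene ins-1 was at 528 to 863 in generations 2 to 20 and at 487, 378 and 491 in generation 0, again with no overlap (0.55 ± 0.11, adjusted p = 0.00029). The 2 genes that fell were ins-2 and nlp-52. Normalized counts of ins-2 were 640 to 1245 in generations 2 to 20 and 1100, 1345 and 1355 in generation 0 (-0.53 ± 0.15, adjusted p = 0.0054). Those of nlp-52 were 24.8 to 123 and 73.9, 103.5 and 212, so that the groups overlapped (-0.99 ± 0.32, adjusted p = 0.013). Without lineage B neither call held (adjusted p = 0.055 for ins-2 and 0.057 for nlp-52), and the nlp-52 call was also lost without lineage C (0.22).

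The lineages contributed unequally to this comparison. The median log2 difference of the 120 genes was 0.50 in lineage A, 0.54 in lineage B and 0.17 in lineage C, beside medians of all genes tested between -0.01 and 0.00. Of the 120 genes, 99 had a positive difference in lineage A, 99 in lineage B and 75 in lineage C. Of the 42 genes that rose, 41 had a positive difference in all 3 lineages. That count is no separate support, since the call itself favours genes with 1 sign in all lineages. A test of whether the difference itself varied between lineages called none of the 120 genes, beside 0.0359% of all genes tested. Without lineage B, 20 genes rose and none fell. That fit holds fewer libraries of generation 0. The share of all genes called in it is not given here, so the count cannot be set against that share.

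**Figure D2:**
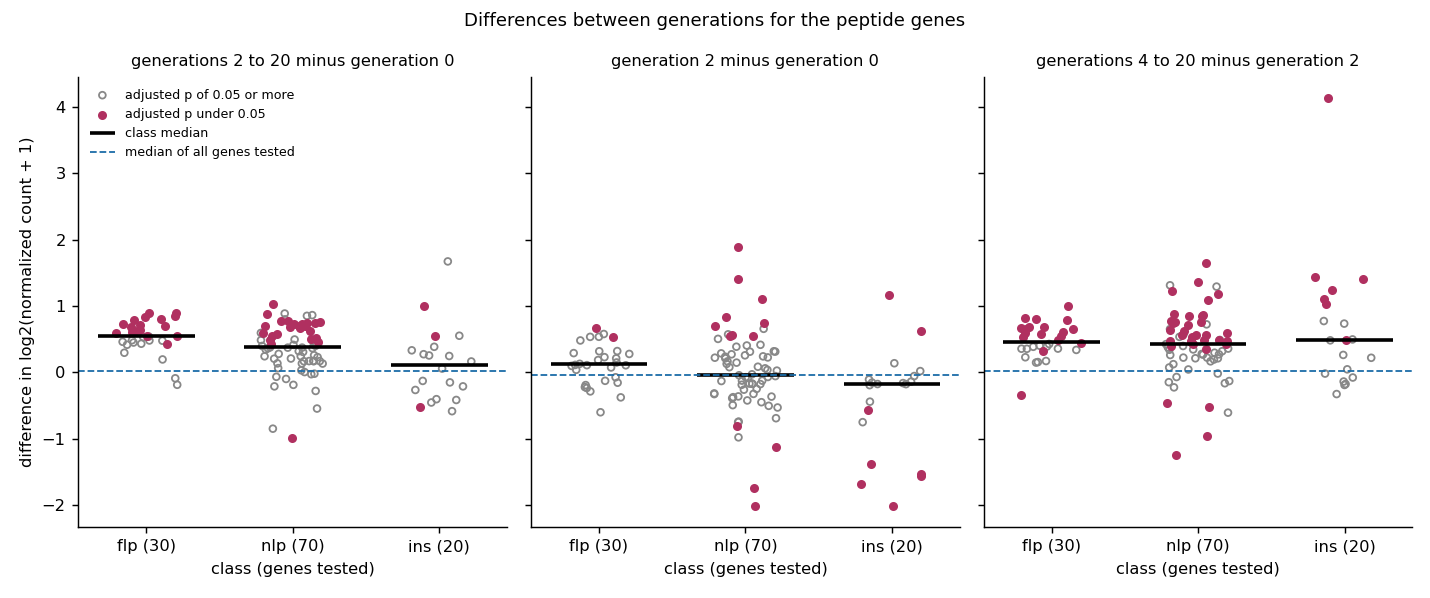
Difference in log2(normalized count + 1) (y axis) of each tested flp, nlp and ins gene in 3 comparisons between generations. Filled points passed an adjusted p of 0.05, black bars are class medians and the dashed line is the median of all 16714 genes tested; the insulin-like median is -0.18 for generation 2 minus generation 0 and 0.48 for generations 4 to 20 minus generation 2.

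Generation 2 was then set against generation 0 by a comparison added after the data were seen. In generation 2, 13 of the 120 genes rose and 10 fell, beside 11.8% of all genes tested higher and 14.7% lower, and the median log2 difference of -0.04 equalled that of all genes. By class, 2 flp genes rose (6.67%) and none fell. Among nlp genes 9 rose (12.9%) and 4 fell (5.71%), and among ins genes 2 rose (10%) and 6 fell (30%). The shares that rose were near or under that of all genes, and of the shares that fell only that of ins genes was above it. Generation 2 has 3 libraries, 1 for each lineage, so that generation and a shared time of embryo collection cannot be told apart.

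The summed level of the insulin-like genes was lower in generation 2 than in generation 0 of each lineage. It was 2518 to 3732 normalized counts in generation 2 and 3936 to 4640 in generation 0. In generations 4 to 20 it was 3299 to 5590, a range that holds the generation 2 value of lineage C (3732). Of the 20 tested genes 6 fell and 2 rose, so the sum does not stand for the whole class. The DAF-2 agonist gene ins-6 was at 54.1, 52.5 and 43.1 normalized counts in generation 2 of lineages A, B and C, against 181, 171 and 139 in generation 0 (log2 difference -1.69 ± 0.31, adjusted p = 0.00015). The most abundant insulin-like gene, ins-34, was at 561, 357 and 652 in generation 2, against 1340, 1420 and 1663 in generation 0 (-1.53 ± 0.25, adjusted p = 3.9e-05). Every library of generation 2 lay under every library of generation 0 for both genes. The same held for ins-35 (21.8, 13.9 and 25.4 against 48.9, 54.2 and 84.2) and ins-24 (10.4, 7.92 and 8.84 against 18.5, 27.1 and 31.7), with log2 differences of -1.57 ± 0.39 (adjusted p = 0.0031) and -1.39 ± 0.46 (adjusted p = 0.024). Of the nlp genes, nlp-52 fell by 1.75 ± 0.38 on the log2 scale (adjusted p = 0.00080), with 38.5, 24.8 and 42.0 in generation 2 and 73.9, 103.5 and 212 in generation 0. The antimicrobial gene nlp-32 fell by 2.02 ± 0.69 (adjusted p = 0.029) at levels of 4.16 to 17.7 in generation 2. Groups were apart for 10 genes that were lower and 12 that were higher in generation 2, beside 14.3% and 14.7% of all genes tested.

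Of the 8 epidermal antimicrobial genes nlp-27 to nlp-34, a group put together after the values were seen, 4 rose in generation 2 (nlp-29, nlp-30, nlp-33 and nlp-34), nlp-32 fell and 3 did not pass the test. The 3 were nlp-31 (log2 difference 0.38 ± 0.23, adjusted p = 0.23), nlp-28 (0.32 ± 0.67, adjusted p = 0.77) and nlp-27 (-0.75 ± 0.85, adjusted p = 0.56), the last at 4.16, 3.96 and 6.63 normalized counts in generation 2 and 2.77, 9.67 and 21.9 in generation 0. A cluster of these genes lies on chromosome V between nlp-34 (3974103 to 3979134) and nlp-27 (3989377 to 3989770). In generation 2, nlp-34 was at 535, 644 and 900 normalized counts in lineages A, B and C, against 178, 130 and 266 in generation 0 (log2 difference 1.88 ± 0.26, adjusted p = 3.4e-06). Next to it, nlp-30 was at 507, 643 and 735 in generation 2, against 277, 201 and 424 in generation 0 (1.11 ± 0.27, adjusted p = 0.0029). Both genes were higher in all libraries of generation 2 than in any of generation 0. The row of nlp-34 also holds str-82 and str-83, whose own rows were at or near 0. For nlp-33, an antimicrobial gene elsewhere on chromosome V, the difference of 1.41 ± 0.46 (adjusted p = 0.024) rested on lineages A and B, with 1554 and 1640 in generation 2 and 623 and 146 in generation 0, while lineage C had 665 and 995.

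**Figure D3:**
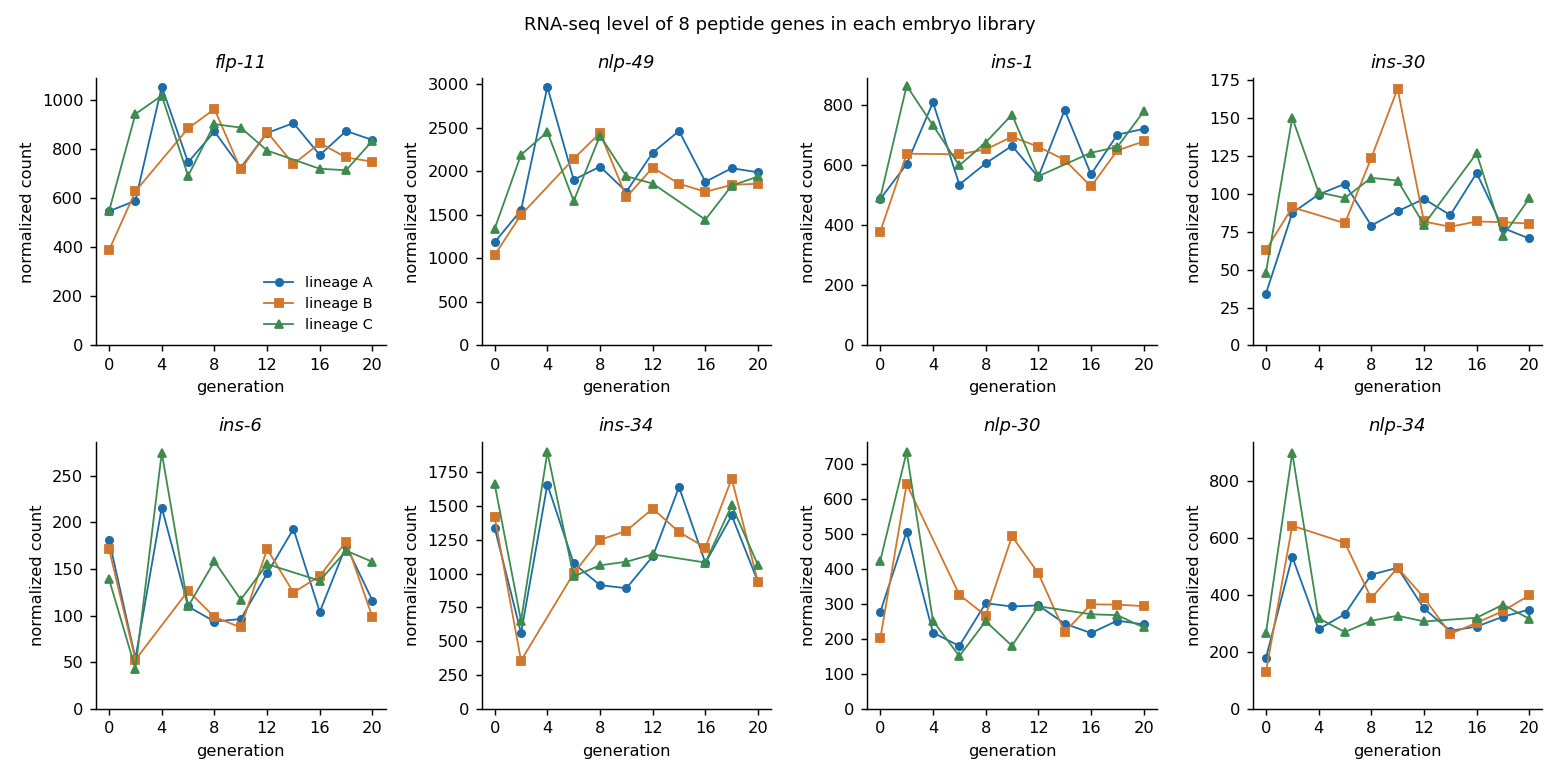
Normalized counts (y axis) of flp-11, nlp-49, ins-1, ins-30, ins-6, ins-34, nlp-30 and nlp-34 in each library by generation (x axis), with 1 line for each lineage. The top row shows genes that were lowest in generation 0, and the bottom row shows ins-6 and ins-34 at their lowest, and nlp-30 and nlp-34 at their highest, in generation 2 of each lineage.

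The comparison of generations 4 to 20 with generation 2 shares the libraries of generation 2 with the comparison above, so the differences of these genes in it are not a separate observation. Of the 120 genes, 55 rose and 5 fell relative to generation 2, a share of 45.8% beside 18.3% of all genes tested higher, and 4.17% beside 18.0% lower, or 36.3% in either direction. The median log2 difference was 0.45 over the 120 genes and 0.02 over all genes. By class, 17 flp genes rose and 1 fell, 31 nlp genes rose and 4 fell, and 7 ins genes rose and none fell, with class medians of 0.46, 0.43 and 0.48. Of the maternal and early embryo markers, 6 of 12 were lower. The adult yolk and sperm markers had the largest median, 0.79, with 4 of 6 higher, at a summed level of 1930 to 3059.7 normalized counts in generations 4 to 20 and 2391 to 2510 in generation 2. Of the neuron markers 8 of 15 were higher and 1 lower (median 0.44), and of the intestine markers 3 of 7 were higher and 1 lower (0.27). No muscle marker was called, 2 of 12 hypodermis markers were higher and 2 lower, and the part of these markers in the differences was not tested.

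Of the 20 tested insulin-like genes, 7 were higher in generations 4 to 20 than in generation 2. The counts of ins-6 were 87.3 to 275 in generations 4 to 20, with a median of 137, above each library of generation 2 (log2 difference 1.44 ± 0.24, adjusted p = 3.25e-05). Those of ins-34 were 893 to 1900 with a median of 1128 (1.25 ± 0.19, adjusted p = 1.7e-05), and those of ins-24 were 11.2 to 53.9 (1.40 ± 0.35, adjusted p = 0.0023). None of the 3 overlapped with generation 2. When generations 4 to 20 alone were set against generation 0, none of the 3 passed the test, with log2 differences of -0.25 for ins-6 (adjusted p = 0.39), -0.28 for ins-34 (adjusted p = 0.19) and 0.02 for ins-24 (adjusted p = 0.97). The abundant ins-2 did not follow them: it differed from generation 2 by 0.04 ± 0.16 (adjusted p = 0.85) and was lower than in generation 0 also without generation 2 (-0.53, adjusted p = 0.0036).

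The largest rises among nlp genes were those of nlp-16 and nlp-45. Counts of nlp-16 were 141 to 653 in generations 4 to 20, against 113, 143 and 84.0 in generation 2, with an overlap of 1 library of lineage C (log2 difference 1.65 ± 0.31, adjusted p = 0.00019). The gene nlp-45 was low throughout, at 13.7 to 43.8 in generations 4 to 20 and 17.7, 1.98 and 19.9 in generation 2 (1.36 ± 0.38, adjusted p = 0.0057), so that its fitted difference was carried by lineage B. It was the only 1 of the 120 genes for which the difference varied between lineages (adjusted p = 0.013), beside 8.37% of all genes tested. Without lineage B it was no longer called (adjusted p = 0.38).

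The 5 genes that fell relative to generation 2 were 4 of the epidermal cluster and flp-34. The counts of nlp-30 were 151 to 493.5 in generations 4 to 20, under all 3 libraries of generation 2 (log2 difference -1.24 ± 0.18, adjusted p = 6.5e-06). Those of nlp-34 were 264 to 584 (-0.96 ± 0.18, adjusted p = 0.00013). For nlp-29 the difference was -0.52 ± 0.18 (adjusted p = 0.026) and for nlp-31 -0.47 ± 0.16 (adjusted p = 0.024), both with overlap. The nlp-29 call was lost without lineage B (adjusted p = 0.13) and without lineage C (0.22), and the nlp-31 call without lineage C (0.23). The fall of flp-34 by 0.34 ± 0.09 (adjusted p = 0.0032) was accompanied by a fall of nra-4, which overlaps its row. The fall of nra-4 was 0.48 ± 0.07 (adjusted p = 4.1e-06), and without lineage C the flp-34 call was lost (adjusted p = 0.056). Of the 5 genes, nlp-30 alone did not overlap between the groups, and 7 of the 55 that rose did not, beside 5.5% and 4.12% of all genes tested.

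Lineages A and B carried most of the rise over generation 2. The median log2 difference of the 120 genes was 0.60 in lineage A, 0.63 in lineage B and 0.03 in lineage C. In lineage C 64 of the 120 genes had a positive difference, against 106 in lineage A and 109 in lineage B. The summed level of all genes but nlp-77 was already 42539 normalized counts in generation 2 of lineage C, against 31012 and 31397 in lineages A and B. Without lineage A 29 genes rose and 5 fell, without lineage B 22 rose and 4 fell, and without lineage C 66 rose and 3 fell. These fits hold fewer libraries of generation 2. The shares of all genes called in them are not given here, so the counts cannot be set against those shares.

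The largest difference of all belonged to ins-13, on chromosome II (5544512 to 5544864). Its normalized counts were 52.6, 45.5 and 6.56 in generation 0 of lineages A, B and C, 5.20, 5.94 and 5.52 in generation 2, and 76.1 to 199 in generations 4 to 20. The log2 difference of generations 4 to 20 from generation 2 was 4.14 ± 0.20 (adjusted p = 4.8e-16). The row shares 87 bases with exons of acdh-2, an acyl-CoA dehydrogenase gene on the same strand. The counts of acdh-2 were 266 to 1778 in generation 0, 72.8 to 123 in generation 2 and 2039 to 5615 in generations 4 to 20, a log2 difference of 5.03 ± 0.20 from generation 2. The count of ins-13 was 2.47% to 3.46% of that of acdh-2 in generation 0, 4.5% to 7.14% in generation 2 and 2.14% to 5.09% in generations 4 to 20, so it moved with acdh-2 in every lineage. Reads of the shared bases cannot be told apart in these counts, and the part of acdh-2 in the change of ins-13 was not tested.

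**Figure D4:**
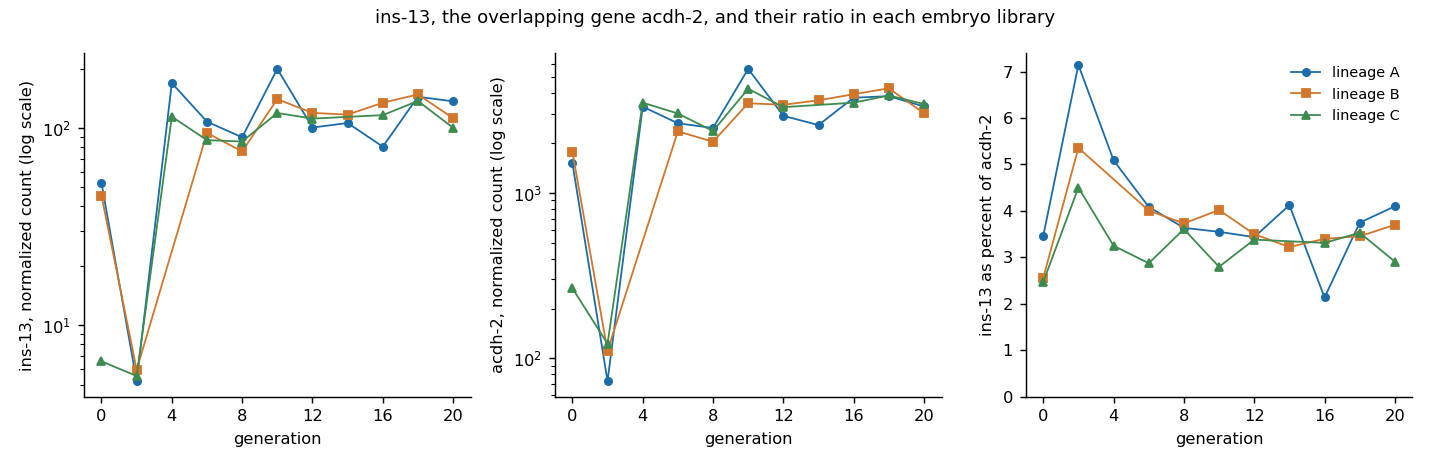
Normalized counts of ins-13 (left, log axis) and of the overlapping gene acdh-2 (middle, log axis), and ins-13 as a percent of acdh-2 (right, linear axis), by generation and lineage. Both genes are lowest in generation 2 in all 3 lineages and their ratio stays between 2.14% and 7.14%.

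Next, late generations were set against early ones. Between generations 12 to 20 (14 libraries) and generations 4 to 10 (11 libraries), none of the 120 genes passed the limma test, beside 0.0% of all genes, with 5 at an unadjusted p under 0.05, beside 7.08% of all genes, and a lowest adjusted p of 0.63. Neither edgeR nor DESeq2 called any of them, also with 5 each at an unadjusted p under 0.05, beside 6.65% and 7.08% of all genes. The median log2 difference was -0.04 over the 120 genes. Between the 3 lineages over generations 2 to 20 none of the 120 genes differed by limma, edgeR or DESeq2, with 0 at an unadjusted p under 0.05 in each, beside 4.6%, 4.13% and 4.72% of all genes, and 0.0359% of all genes called by limma. With 9 or 10 libraries of a lineage, which descend from each other, this shows only that lineage differences were not detectable against the spread between generations.

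In the terms of the study an expression change is a library whose count departs from generation 0 of its own lineage by a Z-score past a fixed cut-off between 2 and 3, computed from the residuals of a linear model over all genes, and consecutive sampled generations past it in 1 direction form a run. Of 4088 values of the 146 genes, 100 were past the cut-off upward, beside 2.65% of all values of all genes, and 48 downward, beside 2.1%, which made 3.62% in all beside 4.75%. Most came from rarely counted genes. The 26 genes with a mean under 10 had 14.3% of values past the cut-off, beside 9.22% over all genes with such a mean. Upward these shares were 9.07% and 4.64%, and downward 5.22% and 4.58%. The 120 genes with a higher mean had 1.31% past the cut-off, with 1.01% upward and 0.298% downward. Over all genes with a mean of at least 10 these shares were 1.79%, 1.33% and 0.46%. With the model over all genes, no flp gene with a mean of at least 10 was ever past the cut-off. Of 9 nlp and 2 ins genes that were, ins-13, nlp-33, ins-14 and nlp-27 held the most values. These shares depend on the model. Fitted only to genes with a mean of at least 10, it put 50 values of the 120 genes past the cut-off upward and 31 downward. Over all genes it put 34 and 10 there.

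Runs of at least 2 sampled generations, which count as inherited, numbered 31 of 88 runs over 19 genes, or 35.2% beside 23.9% of the runs of all genes. Among genes with a mean of at least 10 they numbered 10 of 23 runs, or 43.5% beside 27.6%. The longest was ins-13 in lineage C, up in all 8 libraries between generations 4 and 20. In that lineage its generation 0 count was 6.56, against 52.6 and 45.5 in the others, which had no upward run. Likewise nlp-33 was up in lineage B in 2 runs of 4 sampled generations, between 2 and 10 and between 14 and 20, where its count in generation 0 was 146, against 623 in lineage A and 995 in lineage C. In the later libraries of lineage B nlp-33 was at 435 to 1640, a range that overlapped with those of lineages A and C. The 3 runs of ins-14 and the 2 runs of nlp-27 were in lineage A, where their generation 0 counts were 1.85 and 2.77. Each of these runs was therefore set against a generation 0 library that was the lowest of the 3.

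Genes for peptide processing and dense-core vesicles came from a list of 20. In generations 2 to 20, 11 rose and 1 fell relative to generation 0, or 55.0% and 5.0% beside 17.7% and 21.9% of all genes tested, with a median log2 difference of 0.48. The carboxypeptidase gene egl-21, which trims the cut peptides, rose the most at 0.93 ± 0.12 (adjusted p = 1.4e-06), with 3066 ± 451 normalized counts in generations 2 to 20 and 1595 ± 147 in generation 0 (SD, n = 28 and 3). It was followed by the vesicle membrane protein gene ida-1 at 0.84 ± 0.14 (adjusted p = 3e-05) and the proprotein convertase gene egl-3 at 0.77 ± 0.14 (adjusted p = 8.5e-05). The gene that fell was nep-1, a neprilysin peptidase that degrades peptides, by 0.36 ± 0.11 (adjusted p = 0.011). In generations 4 to 20, 8 of the 20 rose and 2 fell relative to generation 2, or 40% and 10% beside 18.3% and 18.0% of all genes tested, and neither egl-3 (0.32 ± 0.13, adjusted p = 0.061) nor egl-21 (0.20 ± 0.12, adjusted p = 0.19) was among them.

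Of 94 peptide receptor genes, 88 were tested. In generations 2 to 20, 22 rose and 3 fell relative to generation 0, or 25% and 3.41% beside 17.7% and 21.9% of all genes tested, with a median log2 difference of 0.26. The largest rises were at low counts, dmsr-11 at 1.88 ± 0.50 (adjusted p = 0.0033) and frpr-11 at 1.29 ± 0.32 (adjusted p = 0.0018), whereas frpr-13 averaged 445 ± 83.9 normalized counts in generations 2 to 20 and 225 ± 59.1 in generation 0 (0.99 ± 0.18, adjusted p = 5.9e-05). The tachykinin receptor gene tkr-2 fell by 0.68 ± 0.18 (adjusted p = 0.0038). Relative to generation 2, 23 receptor genes rose and 2 fell in generations 4 to 20, or 26.1% and 2.27% beside 18.3% and 18.0% of all genes tested.

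Of 13 insulin signalling genes, 2 rose and 6 fell in generations 2 to 20 relative to generation 0, or 15.4% and 46.2% beside 17.7% and 21.9% of all genes tested, with a median log2 difference of -0.16. The kinase gene akt-2 rose by 0.50 ± 0.07 (adjusted p = 6.4e-06) and daf-16, the FOXO factor at the end of the pathway, by 0.27 ± 0.10 (adjusted p = 0.027). The phosphatase gene daf-18 fell by 0.79 ± 0.19 (adjusted p = 0.0014) and the PI3 kinase gene age-1 by 0.48 ± 0.15 (adjusted p = 0.0090). The receptor gene daf-2 was at 5888 ± 1321 normalized counts in generations 2 to 20 and 5204 ± 1411 in generation 0 (SD), a difference of 0.17 ± 0.20 (adjusted p = 0.51).

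In chromatin, 121 elements were assigned to 79 of the genes, with 1 element for 50 of them and 6 for nlp-77. The median distance to the start was 477 bp, and 62 elements lay within 500 bp. Their median normalized ATAC-seq count was 107, beside 118 over all elements. In generations 2 to 20 no element of these genes passed the limma test relative to generation 0, beside 0.0% of all elements, and 18 had an unadjusted p under 0.05, of which 5 were higher and 13 lower, beside 11.4% of all elements. By edgeR none passed, with 17 at an unadjusted p under 0.05, beside 12.5% of all elements. By DESeq2 2 did, with 19 at an unadjusted p under 0.05, beside 14.6% of all elements. The share of all elements that passed by DESeq2 is not given here, so the 2 calls cannot be set against it. Those 2, named after their values were seen, lay at -1389 bp from the start of flp-16 (chromosome II, 13233843 to 13233992) and at -89 bp from that of nlp-27 (chromosome V, 3989215 to 3989364). The flp-16 element had 25.4 to 76.9 normalized counts in generations 2 to 20 and 20.2 to 33.9 in generation 0 (log2 difference 0.80 ± 0.21, limma adjusted p = 0.14). The nlp-27 element had 74 to 137 and 59.8 to 76.8 (0.50 ± 0.14, limma adjusted p = 0.17). Ranges of generations 2 to 20 and generation 0 overlapped for both. Between lineages no element was called by limma, edgeR or DESeq2, with 7, 5 and 5 at an unadjusted p under 0.05, beside 5.29%, 5.19% and 6.82% of all elements.

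The 22G-RNAs are small antisense RNAs made by RNA-dependent RNA polymerases and bound by Argonaute proteins, and in C. elegans some carry gene silencing between generations. Small RNA libraries were shallower than the others, and those of generations 2 to 20 held 106897 to 1504610 reads, against 1008367 to 1611500 in generation 0. Among the 16 genes with a row, 8 averaged at least 10 normalized counts. The highest was ins-17 with 420, at the percentile 96.5 of all genes in the table, followed by ins-5 with 178, flp-16 with 131, nlp-52 with 52.8 and nlp-40 with 47.9. At the low end ins-33 was at 0 in 25 of 31 libraries.

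Antisense to ins-17, normalized counts were 275 to 832 in generations 2 to 20, with a median of 419, and 289, 224 and 248 in generation 0 of lineages A, B and C. Of the 28 later libraries, only 2 of lineage C were under the highest library of generation 0. The log2 difference was 0.75 ± 0.19 (limma, adjusted p = 0.035), and it was the only 1 of 8 tested genes to pass, beside 0.922% of all genes tested higher and 1.23% in either direction. The call was lost without the lineage block (adjusted p = 0.062) and without lineage A (0.11), lineage B (0.76) or lineage C (0.087), where the log2 difference was 0.65 to 0.82. The RNA-seq count of ins-17 itself was 104.01 to 294 in generations 2 to 20 and 121, 139 and 186 in generation 0 (0.25 ± 0.21, adjusted p = 0.35).

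The other genes with 22G-RNAs did not pass with all lineages in the fit. For flp-16 the difference was 0.52 ± 0.21 (adjusted p = 0.34), and without lineage C it was 0.91 and was called (adjusted p = 0.047), with 70 to 200 normalized 22G-RNA counts in generations 2 to 20 and 69.5, 86.1 and 128 in generation 0. For ins-5 it was -0.29 ± 0.18 (adjusted p = 0.77), with 102 to 314 and 255, 206 and 170. For nlp-40, whose peptide from the intestine paces defecation, the counts ranged between 12.3 and 148 and the difference was -0.17 ± 0.38 (adjusted p = 0.99). By the Z-score used for RNA-seq, 28 of 448 values of the 16 genes were past the cut-off, 6.25% beside 3.93% of all genes in the table. Most of them came from genes with a mean under 10, and of the 8 tested genes only nlp-12 and nlp-9 held any. The shares were not split by mean count as for RNA-seq. The longest runs, in nlp-24, nlp-36 and nlp-9, covered 2 sampled generations.

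**Figure D5:**
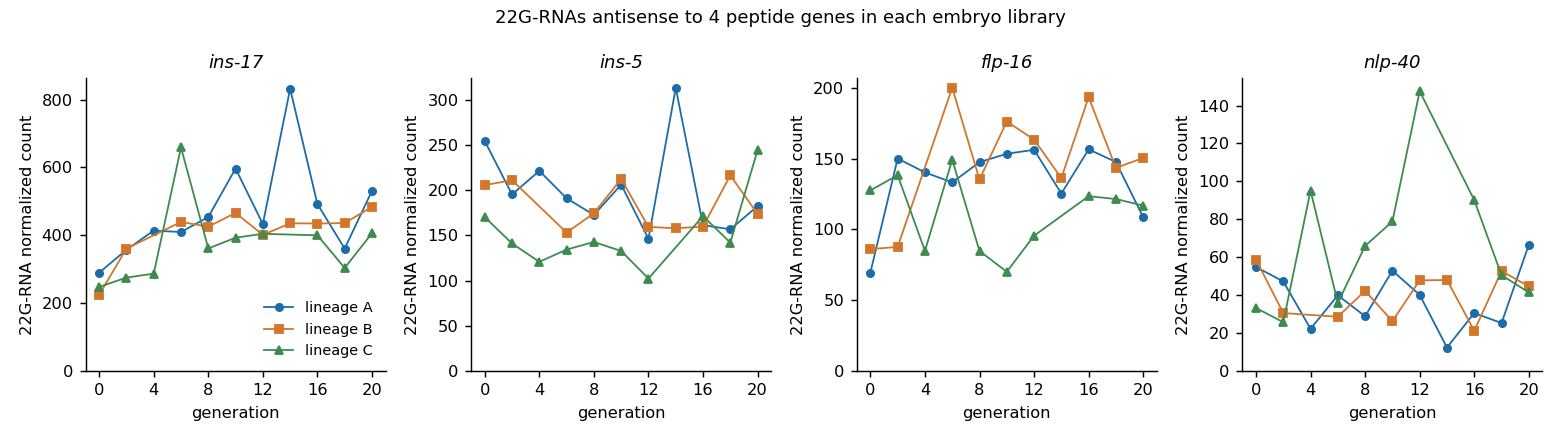
Normalized counts of 22G-RNAs antisense to ins-17, ins-5, flp-16 and nlp-40 (y axis) in each small RNA library, by generation (x axis) and lineage. The ins-17 counts of generation 0 (224 to 289) lie at the low end of the range, and the other 3 genes overlap between generations 2 to 20 and generation 0.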

How the data were processed

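Embryos were profiled by RNA-seq, small RNA-seq and ATAC-seq, with 31 libraries each. The deposited signal values are reads per gene, regulatory element or 22G-RNA target, scaled by the authors with size factors from DESeq2, after alignment with Bowtie2 (RNA-seq and ATAC-seq) or Bowtie (22G-RNAs). All values were whole multiples of 1 read within 0.001 read, with a written 1 standing for a count of 0 in both larger assays, so whole reads were recovered. Counting did not use strand as far as the sources used here say. Coordinates and exons are from Ensembl release 115 (WBcel235): 140 genes matched by symbol and 6 by position. Elements were assigned to the nearest protein-coding transcript start.

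Differences were tested with limma 3.58.1 on log2(normalized count + 1), robust with a mean trend, over features with a mean of at least 10, with Benjamini-Hochberg adjustment over all features and lineage as a block. Lineages are lines of descent, which pairs their libraries. The correlation of deviations of a lineage from its group means was 0.12 to 0.53 between generations 2 to 20 and generation 0, and -0.03 to 0.37 between generations 4 to 20 and generation 2. P-values measure the spread between these libraries. Beyond the lineage block, the fit treats the libraries of a lineage as independent, although they descend from each other. The p-values therefore do not measure the spread between independent cultures. The test was run on simulated counts drawn independently for each library, without effects of lineage or of a shared generation. That check therefore does not cover libraries of a generation that move together. No pair of libraries differed by less than counting noise. Alternatives were pseudocounts of 0.5 and 5, no filter, TMM scaling, count models on the recovered reads (edgeR 4.0.16, DESeq2 1.42.0), no block, each lineage left out, generations 4 to 20 only, generation as a factor, and for Z-scores other cut-offs, references and models. In R 4.3.3, Python 3.11.15, numpy 2.4.6 and pandas 2.3.3. The genes and lists were chosen with earlier results of these data known. Genes named are the 5 highest per kilobase of exons in each class. Others are up to 6 called in each direction and comparison with the largest differences, 5 with the longest runs and 5 with the most 22G-RNAs. Up to 3 called genes of each pathway list were also named. Named after their values were seen were flp-13, daf-28, daf-2, ins-16, ins-33, nlp-9, nlp-12, nlp-28, nlp-36 and 2 elements. No sequences are printed.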

Additional observations from a re-analysis of the deposited data

Results flagged for a closer look

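For the 37 named genes, a library was looked for that stood far from the other later libraries of its lineage, in 111 groups of 9 or 10 libraries. Of these groups 17 had such a library. Chance alone gives about 1 in 20, but that rate is no measure here, since genes were named in part for their differences in generation 2, where 6 of the 17 lie. In generation 4 of lineage A the highest values were 38180 normalized counts for nlp-77, 477 for flp-12, 123 for nlp-52, 37.3 for ins-5 and 1447 for nlp-40. In generation 4 of lineage C they were 869 for flp-27, 294 for ins-17 and 43.4 for ins-5. In generation 2 nlp-30 stood high in lineages A (507) and C (735), nlp-34 in lineage C (900.4) and nlp-33 in lineage B (1640), whereas ins-13 stood low in lineages B (5.94) and C (5.52). The remaining values were ins-1 in generation 16 of lineage B (528, the lowest), ins-30 in generation 10 of lineage B (169) and ins-5 in generation 12 of lineage B (21.2). Of all tested members, the difference of generations 4 to 20 from generation 2 varied between lineages for nlp-45 (limma interaction, adjusted p = 0.0134).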

How the results depend on the processing

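The counts of genes called in RNA-seq, 44 for generations 2 to 20 against generation 0 and 60 for generations 4 to 20 against generation 2, moved by over 1.5 times only when a lineage was left out, to between 20 and 39 and to between 26 and 69. Without the replicate block they were 45 and 60, with edgeR 44 and 55, with DESeq2 51 and 61, and 65 when generations 4 to 20 alone were set against generation 0. Without the 4 libraries with the fewest genes at 0, left out after the data were seen, they were 40 and 57. The shares of all genes called under these settings are not given here, so the counts cannot be set against those shares. ATAC-seq elements called went to 2 with DESeq2 only. The 22G-RNA call of ins-17 was lost with no replicate block (0 genes called) and in each fit without 1 lineage (0 to 1 genes called, the 1 being flp-16 without lineage C). Z-scores past the cut-off, 148, became 40 at a cut-off of 3 and lay between 81 and 109 with a lineage left out. A model fitted only to genes with a mean of at least 10 gave 81, all in the 120 genes. Of these, 50 were upward and 31 downward, against 34 and 10 for the same genes in the main model, so their number rose. No named gene changed direction. Over 1013 values of named genes under the alternatives, 951 kept their side of the threshold, 34 lost the call and 28 gained it. Depth limits the 26 genes with means under 10 and the 22G-RNAs, and each lineage and generation has 1 library.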
